A study of Arabidopsis thaliana with 30 samples.

Results

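The genes described here are 157 probe sets whose level in Arabidopsis thaliana seedlings was changed after 24 h in far-red-enriched light but moved by less than 2-fold in the wild type after 3 h. They were chosen from group means on the log2 scale, out of 22746 probe sets. In the wild type the 24 h far-red mean had to differ from the 24 h white-light mean by at least 1, which is a 2-fold difference. In the quadruple mutant pifq the same difference had to be at least 0.5 in the same direction, which is 1.41-fold. The 3 h far-red mean of the wild type had to lie within 1 of the mean at the start. The first condition held for 180 probe sets with a higher level and 156 with a lower level, the second left 153 and 101, and the third left 89 and 70. Of all probe sets, 0.791% and 0.686% met the first condition, and 2.34% were higher and 1.39% lower by at least 0.5 in pifq FR24. COR27 (AT5G42900) and a gene of the XTH family were then left out because the rule excludes their symbols. The remaining 157 comprised 87 probe sets higher in far-red at 24 h and 70 that were lower. Of these, 70 probe sets matched exactly 1 locus in the annotation used here, 5 matched several genes, 82 had none, and 7 carried a gene symbol.

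RNA of whole seedlings, either wild type (Columbia) or the mutant pifq, which lacks PIF1, PIF3, PIF4 and PIF5, was measured on 30 arrays, in 10 groups of 3. All seeds were kept at 4 °C for 5 days, after 1.5 h of light, and grown for 2 days at 21 °C in white light of 19 µmol/m2/s with a red to far-red ratio of 6.48. In each genotype, WL0 was the 2-day-old seedling, and FR1, FR3 and FR24 had 1, 3 or 24 h of white light with added far-red (ratio 0.006). WL24 stayed in the first light for the same 24 h. Each genotype is 1 line, and the mutant's ecotype is not given in its sample labels. The 4 genes mutated in pifq had 0 probe sets in the annotation used here, so the genotype labels could not be checked on them.

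Plants read the ratio of red to far-red light with the phytochrome photoreceptors. A low ratio, as under a canopy, returns phytochrome to its inactive form and lets the PHYTOCHROME INTERACTING FACTORS (PIFs), a family of basic helix-loop-helix transcription factors, accumulate and bind promoters. The resulting shade-avoidance response includes a fast set of genes and slower growth, in which hypocotyls elongate and leaf development is restrained. FR24 and WL24 seedlings had the same age, whereas FR1 and FR3 seedlings were older than WL0 by their 1 or 3 h, so that far-red and elapsed time cannot be told apart at these times. In whole seedlings, fewer cells of a type and less RNA per cell cannot be told apart either.

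Array medians lay between 5.55 and 5.64 on the log2 scale. Markers of cotyledon and leaf cells were high on every array, with 5 of 10 listed genes measured and a mean level between 12.94 and 13.36. The 24 h differences of both genotypes and the 3 h difference of the wild type chose the genes, so they are given below without a test. Other comparisons that share those arrays are also described without a test. The arrays that the rule did not use are those of pifq at WL0, FR1 and FR3 and of the wild type at FR1, and the tests of the 157 genes use these alone. Tests at 24 h are given only for genes of other lists that are not among the 157.

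Among the 7 genes with a symbol, THI2.2 (AT5G36910) had the largest 24 h difference. It encodes a thionin, a small cysteine-rich peptide of plant defence. In the wild type its level was 9.26, 9.39 and 9.37 in WL24 and 12.42, 12.46 and 12.23 in FR24, an 8.17-fold difference of the group means. In pifq it was 8.62, 8.66 and 8.60 in WL24 and 12.21, 12.01 and 12.40 in FR24, which is 11.97-fold. All 6 FR24 arrays lay between 12.01 and 12.46, and the other 24 arrays between 8.41 and 9.39. The wild-type levels were 8.71, 8.41 and 8.48 at WL0 and 8.88, 9.05 and 8.89 at FR3. The level in pifq was 9.00, 8.82 and 8.71 at WL0 and 8.97, 8.76 and 8.64 at FR3. At 3 h the wild-type far-red arrays lay above the WL0 arrays, by far less than at 24 h, and the pifq arrays overlapped. The related thionin gene THI2.1 had mean levels of 3.307 in WL24 and 3.301 in FR24 of the wild type. Both are far below the array medians (5.55 to 5.64), where a response may not show.

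LPR1 (AT1G23010), a multicopper oxidase that acts in the arrest of root growth on low phosphate, was higher in FR24 but lower after 3 h. The wild-type level was 4.11, 4.40 and 4.28 at WL0, 3.63, 3.97 and 3.76 at FR3, 3.64, 3.53 and 3.56 at WL24 and 4.74, 4.83 and 4.82 at FR24. In pifq it was 4.53, 4.34 and 4.56 at WL0, 3.86, 3.93 and 3.81 at FR3, 3.62, 3.91 and 3.69 at WL24 and 4.549, 4.101 and 4.405 at FR24. The FR24 arrays were above the WL24 arrays in both genotypes. They also exceeded every WL0 array in the wild type, and in pifq they overlapped the WL0 arrays. The level of LPR1 was low throughout, between 3.53 and 4.83 on all 30 arrays, below every array median (5.55 to 5.64).

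THIC (AT2G29630), the enzyme that makes the pyrimidine part of thiamine (vitamin B1), was also higher in FR24 and lower after 3 h. Its WL24 arrays lay above WL0 in both genotypes, whereas those of LPR1 lay below. The wild-type level was 7.21, 7.30 and 7.14 at WL0, 6.67 on each FR3 array, 7.61, 7.43 and 7.48 at WL24 and 8.66, 8.61 and 8.59 at FR24. In pifq it was 7.19, 7.33 and 7.33 at WL0, 6.64, 6.77 and 6.78 at FR3, 7.74, 7.40 and 7.69 at WL24 and 8.34, 8.25 and 8.25 at FR24. At 3 h the far-red arrays lay below WL0 in both genotypes, and at 24 h they lay above WL24. The 24 h difference was 2.16-fold in the wild type and 1.59-fold in pifq.

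TPS-CIN (AT3G25830) encodes a cineole synthase, a terpene synthase that makes a volatile monoterpene. Its level was between 3.07 and 3.43 on all 18 arrays of WL0, FR1 and FR3, far below the array medians, and stayed below them at 24 h. At 24 h the wild type gave 3.99, 3.89 and 4.80 in WL24 and 5.33, 5.22 and 5.44 in FR24. In pifq the values were 4.05, 3.80 and 4.02 in WL24 and 4.94, 5.42 and 4.97 in FR24. The level was higher on day 3 than on day 2 in both lights, and higher in far-red than in white light, by 2.15-fold in the wild type and 2.22-fold in pifq. The locus AT3G25820 carries the same symbol, and whether its transcript adds to the signal of this probe set was not tested.

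The 3 genes with a symbol that were lower in far-red at 24 h differ in their levels at 3 h. TRM22 (AT1G67040) belongs to the TON1 Recruiting Motif family of proteins that organise microtubules. It measured 6.22, 6.05 and 5.98 in WL24 and 4.54, 4.79 and 4.56 in FR24 of the wild type, and 5.62, 5.54 and 5.86 against 5.34, 4.86 and 5.10 in pifq. The groups did not overlap in either genotype. All 18 arrays at WL0, FR1 and FR3 lay between 6.04 and 6.63.

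ATERDJ2B (AT4G21180), a J-domain protein of the endoplasmic reticulum that takes part in protein translocation, was already low in the wild type at 3 h. Its level was 6.98, 7.06 and 7.10 at WL0 and 6.055, 5.996 and 6.151 at FR3, close to the limit the rule set. At 24 h it was 6.71, 6.73 and 6.68 in WL24 and 5.43, 5.48 and 5.40 in FR24. In pifq the 24 h values were 6.64, 6.43 and 6.76 against 5.92, 6.08 and 6.06. PRA1.F1 (AT1G17700), a prenylated RAB acceptor of vesicle traffic, stood higher at 3 h and lower at 24 h. The wild type gave 6.83, 6.75 and 6.49 at WL0, 7.39, 7.39 and 7.30 at FR3, 5.95, 6.35 and 6.46 at WL24 and 5.42, 5.06 and 4.80 at FR24. In pifq its values were 6.40, 6.49 and 6.49 at WL0, 7.40, 7.18 and 7.21 at FR3, 6.38, 6.07 and 6.14 at WL24 and 5.217, 5.999 and 5.371 at FR24. No FR24 array of either gene reached a WL24 array of its genotype.

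**Figure D1:**
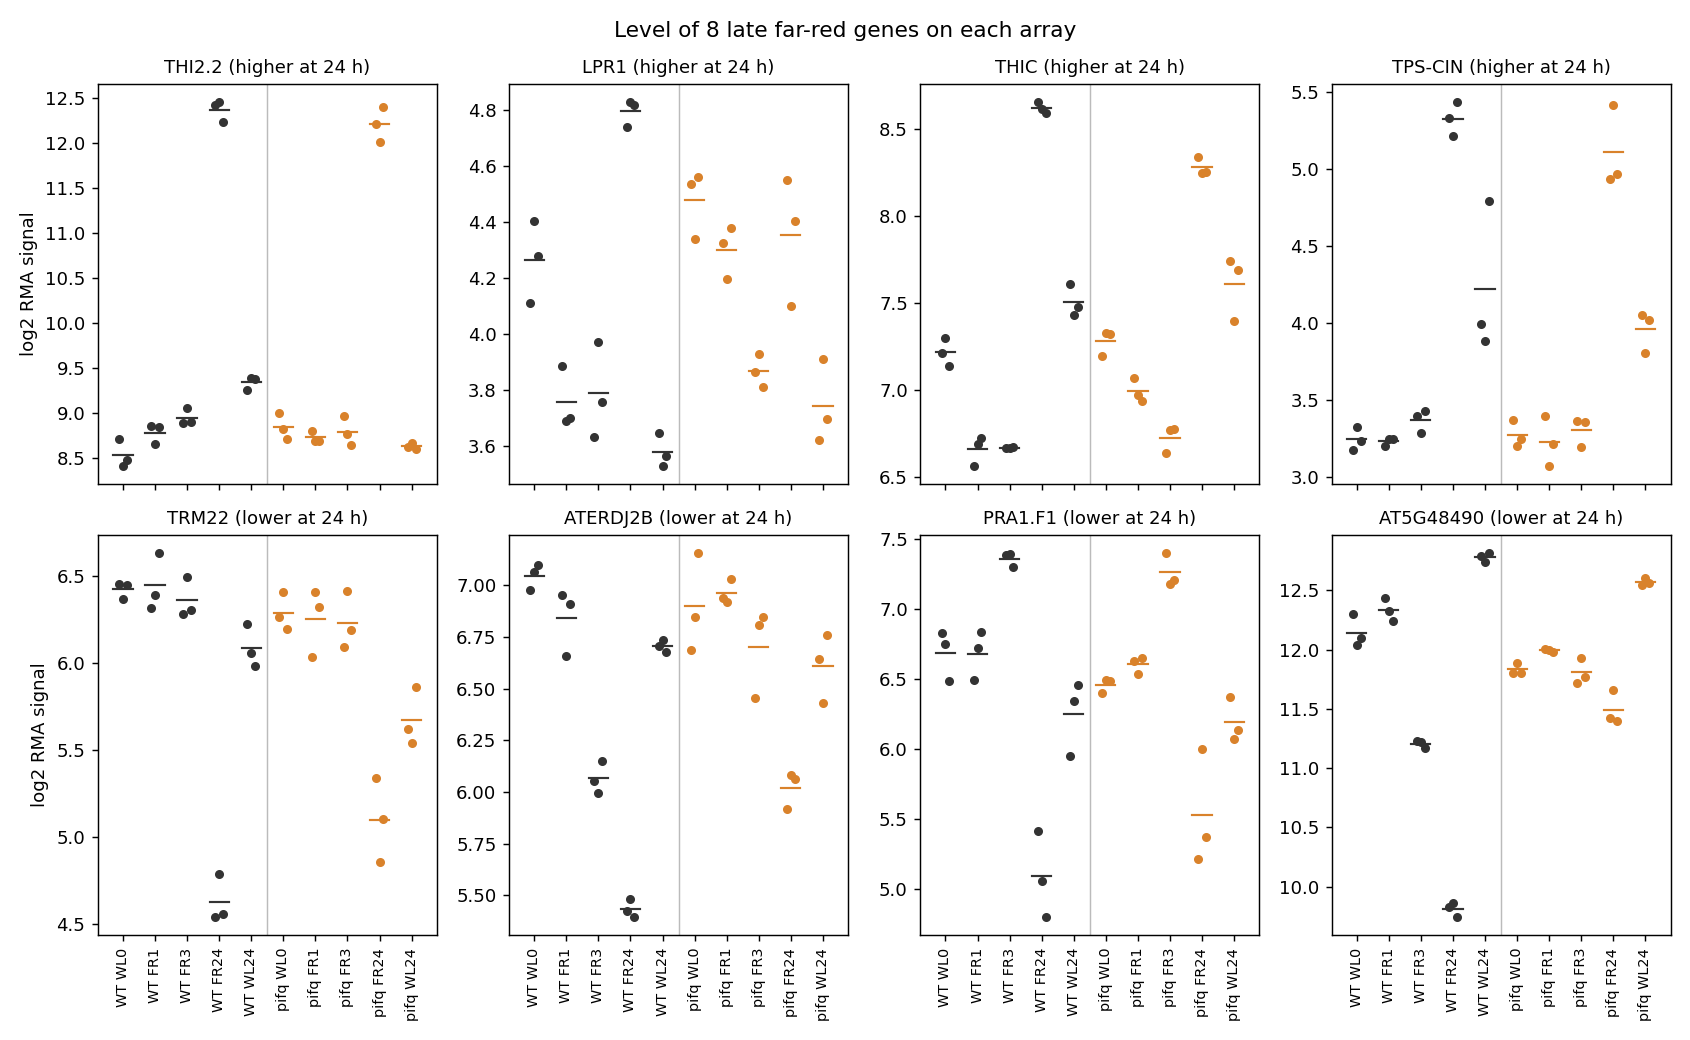
Level (log2 RMA signal, vertical axis, a scale of its own in each panel) of 8 genes on each of the 30 arrays, with wild type in black, pifq in orange, points for arrays and lines for the mean of 3. THI2.2 reaches 12.01 to 12.46 in FR24 and at most 9.39 elsewhere, and LPR1, THIC and PRA1.F1 move at 3 h against their 24 h direction.

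Among the genes with a locus but no symbol in the annotation used here, AT5G48490 had the largest difference of those lower in far-red. In the wild type it measured 12.79, 12.74 and 12.82 in WL24 and 9.83, 9.86 and 9.74 in FR24, a 7.84-fold difference. In pifq it was 12.54, 12.61 and 12.56 in WL24 and 11.42, 11.66 and 11.40 in FR24, a 2.11-fold difference. The WL24 levels of the genotypes lay 0.21 apart and the FR24 levels 1.68 apart, with pifq higher in far-red. At 3 h the wild type was at 11.23, 11.22 and 11.17, below its WL0 values of 12.30, 12.04 and 12.10. The pifq arrays at 3 h (11.72, 11.93 and 11.77) overlapped its WL0 arrays (11.81, 11.88 and 11.81).

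AT5G59080 was the next largest, with 8.61, 8.39 and 8.64 in WL24 and 6.31, 6.35 and 6.39 in FR24 of the wild type, and 8.40, 8.63 and 8.30 against 7.23, 7.33 and 7.12 in pifq. Its 24 h difference was 4.59-fold in the wild type and 2.33-fold in pifq. AT5G22580, AT1G27210, AT2G42220, AT2G41090, AT3G56080, AT3G05730, AT5G23460 and AT3G23080 were lower by 2.62-fold to 4.23-fold in the wild type and by 1.48-fold to 2.097-fold in pifq.

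In the other direction AT4G16880 led the loci, with 4.63, 4.69 and 4.31 in WL24 and 6.817, 6.999 and 7.004 in FR24 of the wild type, and 4.63, 4.66 and 4.57 against 6.07, 6.03 and 6.15 in pifq. The differences were 5.27-fold and 2.75-fold. AT2G15880, AT2G03310, AT1G70820, AT1G78720, AT4G33980, AT4G16146, AT2G36145 and AT2G36885 were higher by 2.66-fold to 4.40-fold in the wild type and by 1.46-fold to 2.97-fold in pifq. AT2G23540 differed by about the same amount in both genotypes, 3.22-fold and 3.23-fold. Its level rested between 3.14 and 3.75 on the 18 arrays of WL0, FR1 and FR3, was 5.17, 5.31 and 5.30 in wild-type WL24 and 6.76, 7.22 and 6.86 in FR24. On those 18 arrays this gene, AT4G16880, AT2G15880, AT1G78720 and AT4G33980 all lay below every array median (5.55 to 5.64).

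Some of the largest differences belonged to probe sets with no gene in the annotation. The probe set 261569_at measured 9.99, 9.77 and 9.83 in WL24 and 6.37, 6.46 and 6.35 in FR24 of the wild type, which is 11.08-fold lower. In pifq it measured 9.39, 9.40 and 9.43 against 5.55, 5.56 and 5.88, which is 13.40-fold lower. The probe set 246099_at was 8.68-fold higher in the wild type, with 5.92, 6.08 and 6.11 in WL24 and 9.11, 8.92 and 9.43 in FR24, and 2.82-fold higher in pifq.

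Over the whole set, the higher genes had a median 24 h difference of 1.28 on the log2 scale in the wild type (range 1.00 to 3.12) and 0.92 in pifq (0.52 to 3.58). For the lower genes the medians were -1.28 (-3.47 to -1.01) and -0.78 (-3.74 to -0.50). In the wild type all 3 FR24 arrays lay beyond all 3 WL24 arrays for 86 of the 87 higher and 70 of the 70 lower genes, against 17.1% and 17.3% of all probe sets. In pifq these counts were 86 and 70, against 12.6% and 15.7%. The rule used these arrays, so nothing is read from the counts.

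The pifq difference amounted to a median of 69.5% of the wild-type difference on the log2 scale for the higher genes (range 28.7% to 126.0%) and 59.2% for the lower genes (33.7% to 111.6%). It was smaller in pifq for 79 of 87 higher and 65 of 70 lower genes, but the rule asked for 1 in the wild type and only 0.5 in pifq, which favours this order. In pifq, 32 of the higher and 19 of the lower genes reached 2-fold, against 0.339% and 0.149% of all probe sets. The genes with a larger pifq difference included THI2.2, TPS-CIN and the probe set 261569_at.

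The smaller pifq difference of the lower genes lay more in the far-red arrays than in the white-light arrays. At FR24 the pifq mean was above that of the wild type by at least 0.5 for 28 of the 70 lower genes and below it by as much for 4, against 1.52% and 0.831% of all probe sets. At WL24 the counts were 1 above and 8 below, against 1.06% and 1.01%. Of the 87 higher genes, 0 were above and 17 below at FR24, and 6 were above and 3 below at WL24. These values share arrays with the rule and were not tested.

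**Figure D2:**
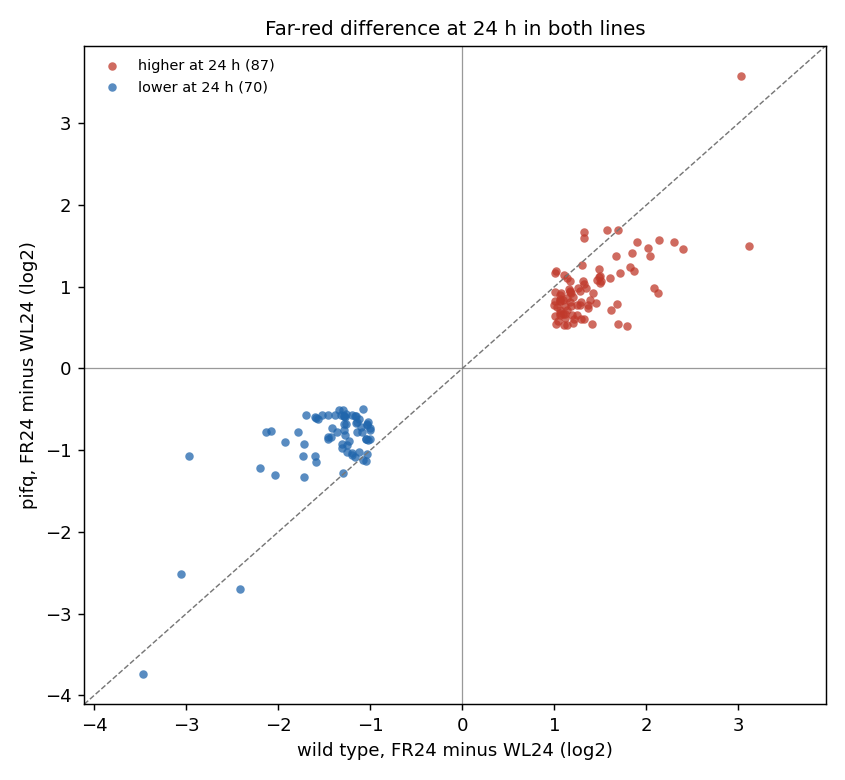
Far-red minus white-light difference at 24 h (log2) in the wild type (horizontal axis) and pifq (vertical axis) for the 87 higher genes in red and the 70 lower genes in blue, with a dashed line of equal difference. The empty bands around 0 are set by the rule, and 79 higher and 65 lower genes have a smaller difference in pifq.

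A difference between FR24 and WL24 can go with a move away from the day 2 level (WL0) in far-red, in white light or in both. The WL0 seedlings were a day younger, so far-red and age cannot be told apart in FR24 against WL0. In the wild type, 57 of the 87 higher genes were within 2-fold of day 2 in WL24 and at least 2-fold above it in FR24. Another 12 were at least 2-fold above day 2 in both lights, AT2G23540 among them. For 10 genes both lights stayed within 2-fold, for 7 WL24 was at least 2-fold below day 2 with FR24 within 2-fold, and for 1, AT5G04960 (named after its values were seen), both were below. Of all 22746 probe sets, 435 were within 2-fold in WL24 and above in FR24, 560 were above in both, 20168 within 2-fold in both, 299 below in WL24 alone and 695 below in both. By light alone, 4.37% were at least 2-fold above day 2 in wild-type FR24 and 4.37% at least 2-fold below it in WL24. The rule selects on the gap between the lights, so these classes are a description.

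The lower genes divided differently, and 26 of 70 were within 2-fold of day 2 in WL24 and at least 2-fold below it in FR24. For 17, the white-light level was at least 2-fold above day 2 while FR24 stayed within 2-fold of it, and AT5G22580, AT3G56080, AT3G05730 and AT5G23460 were among these. For AT5G22580 the WL0 values were 5.49, 5.29 and 5.28, the WL24 values 6.66, 6.86 and 6.72 and the FR24 values 4.57, 4.88 and 4.54. For 23 genes both lights were within 2-fold of day 2, 3 were below in both, and for AT5G59080 WL24 was above and FR24 below. The same classes held 366 (below in FR24 alone), 222 (above in WL24 alone), 20168, 695 and 1 of all 22746 probe sets. By light alone, the background was 3.44% for at least 2-fold above day 2 in WL24 and 4.67% for at least 2-fold below it in FR24.

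In pifq, 40 of the 87 higher genes were within 2-fold of day 2 in WL24 and at least 2-fold above in FR24, 15 were above in both and 26 within 2-fold in both. Of the 70 lower genes, 17 were within 2-fold in WL24 and below in FR24, 8 were above in WL24 only and 43 were within 2-fold in both. Of all 22746 probe sets, 365 were above day 2 in pifq FR24 alone, 463 above in both, 20680 within 2-fold in both, 256 below in FR24 alone and 101 above in WL24 alone. By light alone, 3.64% were at least 2-fold above and 4.12% below day 2 in pifq FR24, and 2.48% above and 3.87% below in pifq WL24.

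AT2G36885 is the gene, among those named by size of difference, whose white-light level lay furthest below day 2. Its wild-type level was 10.10, 10.24 and 10.10 at WL0, 8.19, 8.03 and 8.24 at WL24 and 9.44, 9.53 and 9.72 at FR24, so that FR24 was higher than WL24 and lower than the start. In pifq it was 9.89, 10.17 and 10.39 at WL0, 8.58, 8.45 and 8.54 at WL24 and 9.25, 8.82 and 9.12 at FR24. The mean of the root and root hair markers, of which 3 of 8 were measured (EXPA7, EXPA18 and PYK10), moved the same way. Their mean level per array was 9.77 to 9.83 at wild-type WL0, 8.20 to 8.33 at WL24 and 8.60 to 8.83 at FR24. In pifq it was 9.86 to 10.01, 8.53 to 8.71 and 8.82 to 8.88. Of the 3, 2 passed the limma test as higher in FR24 than in WL24 in the wild type, and 2 in pifq. The mean thus does not stand for each marker. None of the 3 was near the lower end of the scale, and their part in the result was not tested.

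**Figure D3:**
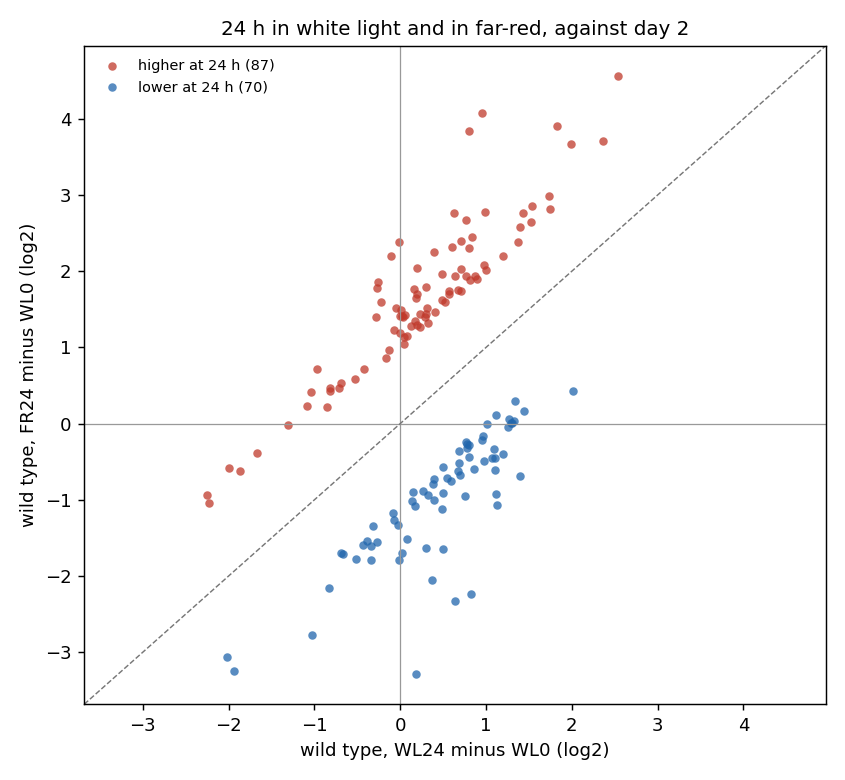
Difference from day 2 (WL0) in the wild type after 24 h of white light (horizontal axis, log2) and of far-red (vertical axis, log2), for 87 higher genes in red and 70 lower genes in blue. The distance from the dashed line of equal change was set by the rule. Of the higher genes, 57 were at least 2-fold above day 2 in far-red and within 2-fold of it in white light. Of the lower genes, 17 were at least 2-fold above day 2 in white light and within 2-fold in far-red.

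The early time points of the wild type are described first. At 1 h the higher genes had a median difference from WL0 of -0.21 (range -0.97 to 0.79), with 63 of 87 below 0, and the lower genes a median of 0.09. Of all 22746 probe sets, 12757 were below 0, with a median of -0.03. Only AT1G54120, named after its values were seen, reached 2-fold at 1 h, as did 0.58% of all probe sets in its direction, with a mean of 9.34 at WL0 and 10.39 at FR1 and a lower level in far-red at 24 h. At 3 h, inside the window that the rule set, 12 of the higher genes were at least 0.5 above WL0 and 20 at least 0.5 below, and 12 of the lower genes were above and 15 below. Of all probe sets, 7.48% were above and 8.70% below by as much. In all, 59 of the 157 (37.6%) differed from WL0 by at least 0.5 at 3 h, against 16.2% of all probe sets.

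In pifq the difference between FR3 and WL0 was tested, with arrays the rule had not used. It joins far-red and 3 h of elapsed time, which cannot be told apart. At FR3, 89 of the 157 genes differed from WL0 (56.7%; limma, adjusted p under 0.05), where 29.9% of all probe sets passed the same test. Most of these 89 changes ran against the 24 h direction. Of the 87 genes higher at 24 h, 34 had fallen at 3 h and 18 had risen. Of the 70 genes lower at 24 h, 26 had risen and 11 had fallen. In all, 29 changed in their 24 h direction and 60 in the opposite one, and over the alternative settings these counts were 27 to 32 and 51 to 63. Across all probe sets 14.6% rose and 15.3% fell. Of the changes, 8 were of at least 2-fold, against 413 among all 22746 probe sets. The median difference was small, -0.12 for the higher genes and 0.12 for the lower genes. The data thus go against a label of genes changed only at 24 h. The rule keeps 3 h changes in the wild type under 2-fold, but it sets no limit at 1 h or on the early changes of pifq.

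Of the genes higher at 24 h, AT4G16146 fell furthest among those named, by 1.22 ± 0.11 (SE; limma adjusted p = 2.53e-10). Its pifq levels were 5.62, 5.90 and 5.96 at WL0 and 4.76, 4.69 and 4.36 at FR3, with no overlap, and 7.47, 7.36 and 7.26 at FR24 against 6.13, 6.28 and 6.02 at WL24. AT2G36885 fell by 0.72 ± 0.12 (limma adjusted p = 3.27e-05). LPR1, the phosphate-response oxidase, fell by 0.61 ± 0.10 (limma adjusted p = 2.45e-05), and THIC, the thiamine enzyme, by 0.55 ± 0.08 (limma adjusted p = 2.44e-06). In each of these genes the 3 FR3 arrays lay below the 3 WL0 arrays.

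The genes that rose at 3 h in pifq included some of each 24 h direction. AT5G59080, lower at 24 h, rose by 1.22 ± 0.10 (limma adjusted p = 4e-11), from 7.25, 7.25 and 7.11 at WL0 to 8.56, 8.37 and 8.34 at FR3. PRA1.F1 rose by 0.80 ± 0.15 (limma adjusted p = 0.000121) and AT5G23460 by 0.58 ± 0.11 (limma adjusted p = 9.18e-05), and both were lower at 24 h. Of the genes higher at 24 h, the probe set 246099_at rose by 0.96 ± 0.15 (limma adjusted p = 8e-06). AT2G15880 rose by 0.64 ± 0.18 (limma adjusted p = 0.0071), a call lost without pifq FR3 replicate 1 (adjusted p = 0.0901). THI2.2 differed by -0.05 ± 0.10 (limma adjusted p = 0.769), TPS-CIN by 0.03 ± 0.15 (0.906), TRM22 by -0.06 ± 0.12 (0.779) and ATERDJ2B by -0.19 ± 0.11 (0.181), and none of these passed the test.

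**Figure D4:**
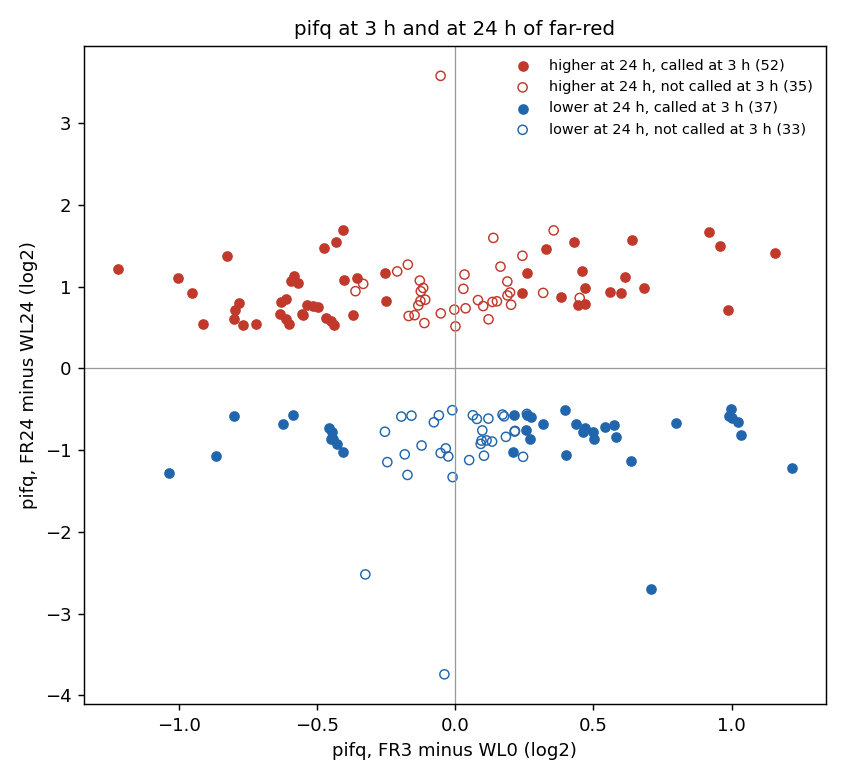
Difference of FR3 from WL0 (horizontal axis, log2) and of FR24 from WL24 (vertical axis, log2) in pifq for the 157 genes; filled points passed the limma test at 3 h. Of the filled points, 34 red ones lie to the left and 26 blue ones to the right, opposite to their 24 h direction, and 29 lie on the side of it.

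After 1 h in pifq, 38 of the 157 genes (24.2%) had changed, against 5.83% of all probe sets (2.94% rose and 2.89% fell). Of the higher genes 5 rose and 18 fell, and of the lower genes 7 rose and 8 fell. An unadjusted limma p under 0.05 was found for 64 of the 157, against 3817 of all 22746 probe sets. AT4G16146 fell by 0.71 ± 0.11 (limma adjusted p = 3.37e-05), AT4G16880 by 0.44 ± 0.10 (limma adjusted p = 0.00514), and AT5G59080 rose by 0.69 ± 0.10 (limma adjusted p = 1.24e-05). AT5G59080 stood at 7.82, 7.89 and 7.98 at FR1, between its WL0 and FR3 levels. None of the 38 reached 2-fold, against 73 called changes of that size among all 22746 probe sets. The 1 h and 3 h comparisons share the WL0 arrays.

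Between 1 and 3 h in pifq, 62 genes (39.5%) changed, against 15.0% of all probe sets (7.4% rose and 7.57% fell). Of the higher genes 19 rose and 18 fell, and of the lower genes 19 rose and 6 fell. AT4G16880 fell at 1 h and rose again, by 0.77 ± 0.10 between 1 and 3 h (limma adjusted p = 2.02e-06), with levels of 4.63, 4.47 and 4.63 at WL0, 4.15, 4.08 and 4.19 at FR1 and 4.90, 5.09 and 4.73 at FR3. PRA1.F1 rose by 0.65 ± 0.15 in this interval (limma adjusted p = 0.00289), after a 1 h difference of 0.15 ± 0.15 that did not pass the test (limma adjusted p = 0.744). AT2G03310, higher at 24 h, rose by 0.54 ± 0.10 (limma adjusted p = 0.000225). LPR1 fell by 0.43 ± 0.10 (limma adjusted p = 0.00365), after a 1 h difference of -0.18 ± 0.10 (limma adjusted p = 0.405).

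The genotypes were compared directly at FR1, where neither group had entered the rule. Of the 157 genes 49 (31.2%) differed between pifq and the wild type, against 13.6% of all probe sets. Of the genes higher in far-red at 24 h, 22 were higher and 4 lower in pifq, and of the genes lower at 24 h, 4 were higher and 19 lower. The genotype difference thus had the sign of the later far-red difference for 41 genes and the opposite sign for 8. Over all probe sets 7.08% were higher and 6.56% lower in pifq. Without wild-type FR1 replicate 1 the total was 32 genes, and over the alternatives 25 to 50 had that sign and 5 to 12 the opposite one. The medians were 0.11 for the higher and -0.18 for the lower genes. None of the 49 reached 2-fold, against 93 called differences of that size among all 22746 probe sets.

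LPR1 was higher in pifq at FR1 by 0.54 ± 0.10 (limma adjusted p = 0.00056), with 4.325, 4.196 and 4.377 in pifq and 3.88, 3.69 and 3.70 in the wild type. THIC was higher by 0.33 ± 0.08 (limma adjusted p = 0.00513), with 7.07, 6.97 and 6.94 against 6.57, 6.69 and 6.73. The probe set 251642_at was higher by 0.49 ± 0.10 (limma adjusted p = 0.00165). The groups did not overlap in any of these. Of the genes lower at 24 h, AT5G48490 was lower in pifq by 0.34 ± 0.08 (limma adjusted p = 0.00375) and AT2G42220 likewise by 0.34 ± 0.07 (limma adjusted p = 0.00178). At WL0, before far-red, most genotype differences already had the same sign, above 0 for 59 of the 87 higher and below 0 for 49 of the 70 lower genes. At FR1 these counts were 56 and 50. The median differences of the higher and lower genes were 0.07 and -0.08 at WL0, and 0.11 and -0.18 at FR1. The step from WL0 to FR1 was not tested. Of all 22746 probe sets, 10186 were above 0 and 12560 below at WL0, and 11879 above and 10867 below at FR1. The WL0 difference was within 0.5 for 84 of the 87 higher and 69 of the 70 lower genes. At FR1 this held for 79 and 64. Over all probe sets, 1.0% differed by 0.5 or more at WL0 and 3.06% at FR1.

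**Figure D5:**
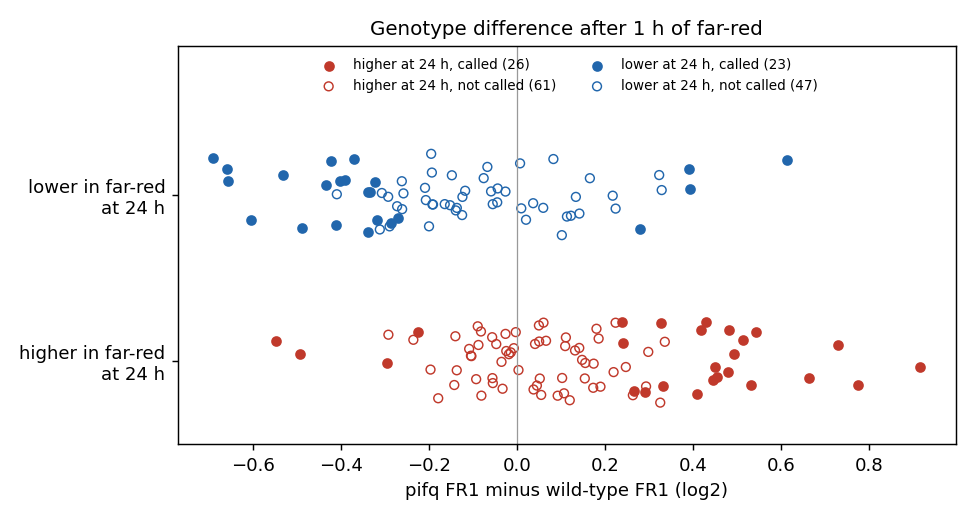
Difference of pifq from the wild type at FR1 (log2, horizontal axis) for the genes lower (blue, upper row) and higher (red, lower row) in far-red at 24 h; filled points passed the limma test and the vertical position within a row is only for legibility. Of the filled points, 22 of 26 red ones lie right of 0 and 19 of 23 blue ones left of it.

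Lists of genes of known function held few of the 157, in an annotation that names few genes. The clock list had 4 of 20 genes measured, all 4 with a higher mean in wild-type FR24 than in WL24. Of these, 1 belongs to the set, AT4G33980, which the list names COR28. Its wild-type level was 5.08, 4.78 and 4.91 in WL24 and 6.55, 6.20 and 6.87 in FR24, and in pifq 5.75, 6.07 and 5.66 against 6.63, 6.33 and 6.68. Its WL24 level was higher in pifq, and the FR24 arrays of the genotypes overlapped. The defence and jasmonate list had 3 of 14 measured. THI2.2 belongs to the set, while the thionin THI2.1 (-0.01 ± 0.11, limma adjusted p = 0.981) and the defensin PDF1.2 (0.09 ± 0.09, limma adjusted p = 0.552) did not differ beyond the threshold in wild-type FR24. Their means there, 3.301 and 4.505, were below every array median (5.55 to 5.64), so a response may have gone unseen.

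The other lists held none of the 157 genes, and their calls in wild-type FR24 against WL24 are given as context, where 11.6% of all probe sets passed the test with a higher level and 11.6% with a lower one. Of 3 sugar and starch genes measured 1 was higher, of 5 flavonoid genes 2 were higher, and of 8 photosystem and antenna genes 2 were higher and 2 lower. Of 2 light stress genes both were lower, of 4 chlorophyll and carotenoid genes 3 were lower, and of 7 shade and auxin genes 1 was higher and 3 were lower. Of 3 root genes 2 were higher, of 5 stomatal and epidermal genes 1 was higher and 1 lower, of 4 cold and water stress genes 1 was lower, and of 3 reference genes 1 was lower. The seed and vascular lists had 0 genes with a probe set.

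Few of the loci lie close together. Among the 70 members with 1 locus, 2 pairs were within 5 genes of each other in the RefSeq gene table. AT2G29310 and AT2G29320, both higher at 24 h, are adjacent with 0 genes between, and AT2G42190 and AT2G42220, both lower, have 2 between. AT2G29310 had wild-type means of 7.95 ± 0.08 in WL24 and 9.12 ± 0.03 in FR24 (SD, n = 3), and AT2G29320 had 5.26 ± 0.26 and 6.32 ± 0.67. The 70 members with 1 locus were 70 different loci, so none had a second probe set assigned to it within the set. Probe sets of these loci outside the set were not counted.

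Several genes lay at the limits of the rule. On the wild-type 24 h limit, AT2G39950 was just inside with 1.00 and AT4G15660 just outside with 0.998, and of the lower probe sets 1 was inside with -1.01 and AT2G24970 outside with -0.99. On the pifq limit, a probe set was inside with 0.52 and AT2G14170 outside with 0.49. On the wild-type 3 h limit, AT5G04960 was inside with -0.98 and ATERDJ2B inside with -0.98, whereas AT1G67810 was outside with -1.01. Of the probe sets that failed a single condition, 297 higher and 189 lower ones missed the wild-type 24 h limit, 20 and 40 the pifq limit, and 64 and 31 the 3 h window.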

How the data were processed

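Per the submitters' processing notes the authors used RMA (version not given), and the deposited table holds log2 levels. RMA corrects background, makes the array distributions equal and summarises probes, which hides any general rise or fall of transcripts. Of 22810 probe sets on 30 arrays, 64 controls were left out and 22746 were tested with no filter on level. No scanner files or batches were used here, and 3 arrays per group limit the precision. The labels call the arrays of a group biological replicates.

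Loci were assigned through GEO's probe annotation and RefSeq gene IDs (TAIR10.1, used for names and neighbours), by which 59.1% of the tested probe sets and 44.6% of the 157 have exactly 1 locus. All 7 members with a symbol are named, with the 10 largest others in each direction by locus, at most 2 probe set IDs a direction, and in tests at most 6 calls a direction.

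Differences were tested with limma 3.58.1 in R 4.3.3 in a fit of 10 group means over all 30 arrays (lmFit and eBayes, 20 residual and 9.44 prior degrees of freedom). The two-sided P-values were adjusted by the Benjamini-Hochberg procedure over the 22746 probe sets, with calls at an adjusted p under 0.05. The procedure was tested on simulated data. The members and the gene lists were chosen with earlier results of these data known, so no list is independent support. Same-numbered pifq arrays of FR1 and WL0 deviated together (r = 0.284, 0.15 and 0.117), and those of FR3 and WL0 more weakly (0.173, 0.086 and 0.144). In the other tested comparisons this was not so for every pair. The alternatives were other samples in the fit, array weights, another variance prior, a filter on dim probe sets, median centring, the replicate block, each array left out, and other limits in the rule.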

Additional observations from a re-analysis of the deposited data

How the results depend on the processing

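The number of genes chosen depends on the limits: with a wild-type 24 h limit of 0.8 it was 249, with 1.2 it was 96, with a pifq limit of 1 it was 51, and with a 3 h window of 0.5 it was 98. Leaving out each array in turn gave 153 to 162, of which 145 to 156 were among the 157. The tested counts, 38, 89, 62 and 49, ranged with an array left out from 27 to 32 for pifq FR1 against WL0, 79 to 86 for FR3 against WL0, 43 to 62 for FR3 against FR1 and 32 to 50 for pifq against the wild type at FR1. The lowest of the last came without wild-type FR1 replicate 1, where calls over all probe sets fell from 3102 to 1713. Calls over all probe sets at pifq FR1 against WL0 numbered 1325, 2405 with array weights and 845 at the lowest with an array left out. With the replicate number as a block the counts were 37, 88, 64 and 52. Deviations of same-numbered arrays of pifq FR1 and wild-type FR1 correlated at -0.107, -0.133 and -0.01. Whether these arrays share a batch was not tested. The block added calls for AT3G56080 in pifq FR1 against WL0 (-0.33, adjusted p = 0.0394) and at FR1 between genotypes (-0.31, 0.0299), for 261191_at at FR3 (-0.32, 0.0258) and for 246099_at between 1 and 3 h (0.41, 0.0486), and changed no other named call. Over the named genes and all alternatives, 1389 values kept their side of the threshold, 41 lost the call and 34 gained it. Of the values called in the main fit or in the alternative, 0 changed direction. Values called in neither were counted as kept whatever their direction. The cause of the lost and gained calls was not tested.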
